A study of Danio rerio with 16 samples.

Results

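Thrombocytes are the nucleated clotting cells of fish, the counterpart of mammalian platelets. Thrombocyte nuclei were examined in single-nucleus RNA sequencing data from adult zebrafish (*Danio rerio*) hearts. They were chosen by a rule on measured counts: at least 500 unique molecular identifiers (UMIs, each standing for 1 captured RNA molecule), at most 5% mitochondrial UMIs, and at least 2 UMIs from at least 2 of the 4 genes *itga2b*, *mpl*, *thbs1b* and *gp1bb*. A nucleus was allowed at most 1 UMI in all of *csf1ra*, *mrc1b*, *slc4a1a*, *rhag*, *flt1* and *tbx18*, which mark macrophages, erythroid cells, endothelium and epicardium. The rule found 823 thrombocyte nuclei among 37644 nuclei that passed the UMI and mitochondrial limits. The groups were *cited4a* mutant hearts (genotype pt38a/pt38a) whose ventricle had lost about 20% by amputation 3 days earlier (3 dpa), *cited4a* mutant hearts without injury (UI), wild-type (WT) hearts at 3 dpa and WT hearts without injury. Hearts were washed and frozen in liquid nitrogen before nuclei were isolated, and libraries captured the 3 prime end of RNA. The sources used here give neither strain, sex, age beyond adult, the number of hearts, nor what the pt38a allele changes in the gene. Each group has 4 labelled samples, whose titles differ only in a lane-like ending, and the labels do not say whether they are separate hearts. The barcodes of a group came in 1 matrix with no sample assigned, so each group counts as 1 sample. No comparison between groups therefore has a replicate check or a p-value, and all 95% intervals cover counting error only.

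In mammals, platelets are shed by megakaryocytes. Fish thrombocytes keep their nucleus and circulate as whole cells. Both carry the fibrinogen receptor, an integrin made of the alpha chain encoded by *itga2b* and a beta 3 chain, and the glycoprotein Ib complex that binds von Willebrand factor on damaged vessel walls. Their production depends on thrombopoietin, whose receptor is encoded by *mpl* and signals through JAK2 and STAT proteins. When an agonist is sensed, RAP1, talin and kindlin-3 switch the integrin to its active form, the cytoskeleton reorganises, and granules release clotting proteins and growth factors at the wound.

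The 4 matrices differed in ways that touch every result below. They held 8309 to 35484 barcodes, of which 9932 of 35484 passed both limits in the matrix labelled mutant UI. The gene tables of the mutant and WT matrices differed, and values are given as counts per 1000000 UMIs (CPM) on the 24753 gene symbols found in all of them. These genes took 90.8% and 90.3% of UMIs in mutant 3 dpa and mutant UI, and at least 99.9% in both WT matrices, so genotype and gene table cannot be told apart. *cited4a*, the mutated gene, gave 313 CPM in thrombocyte nuclei of mutant 3 dpa (69 UMIs), 26.8 CPM in mutant UI (7 UMIs), 64.2 CPM in WT 3 dpa (30 UMIs) and 194 CPM in WT UI (29 UMIs). Other nuclei gave 371 CPM in mutant 3 dpa, 32.7 CPM in mutant UI, 53.4 CPM in WT 3 dpa and 153 CPM in WT UI. The *cited4a* level of 3 dpa against UI thus ran in opposite directions in the mutant and in WT, as did that of many genes below; all directions rest on the labels, and this RNA does not check the genotype because the change made by the allele is unknown here. Mutant and WT matrices shared 0 barcodes. Of the thrombocyte barcodes, 2 were also found in the other matrix of the mutant pair and 7 in the other matrix of the WT pair, and none was a thrombocyte in both.

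The 4 genes of the rule are described first; their values chose the nuclei and support nothing further. *itga2b*, the integrin alpha IIb chain, had a UMI in 83.3% of thrombocyte nuclei of mutant 3 dpa, 83.1% of mutant UI, 82.6% of WT 3 dpa and 82.0% of WT UI. *mpl*, the thrombopoietin receptor, had one in 80.5% in mutant 3 dpa, 71.4% in mutant UI, 68.2% in WT 3 dpa and 70.8% in WT UI, and *thbs1b*, a thrombospondin, in 59.2% in mutant 3 dpa, 61.6% in mutant UI, 77.0% in WT 3 dpa and 69.7% in WT UI. *gp1bb*, a chain of the glycoprotein Ib complex, was seen in 12.1% of nuclei of mutant 3 dpa, 27.1% of mutant UI, 23.6% of WT 3 dpa and 13.5% of WT UI. The most frequent combination was *itga2b* with *mpl* and *thbs1b*, in 214 nuclei, followed by *itga2b* with *mpl* alone in 198 and *itga2b* with *thbs1b* alone in 154. All 4 genes were seen in 42 nuclei. Just inside the threshold, 175 nuclei had exactly 2 UMIs of these genes and 145 had 3, while 503 had 4 or more, up to 23. Just outside it, 2053 nuclei had 1 UMI, 318 had 2 or more UMIs of 1 gene only, and 278 met the marker threshold but carried 2 or more UMIs of the excluding genes.

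The label was checked against 19 further thrombocyte markers that the rule did not use, of which 16 were in the gene tables. Summed over these genes, thrombocyte nuclei had 1414 CPM in mutant 3 dpa, 1727 CPM in mutant UI, 1724 CPM in WT 3 dpa and 969 CPM in WT UI, against 667 in mutant 3 dpa, 572 in mutant UI, 421 in WT 3 dpa and 295 in WT UI in other nuclei (CPM). The level was 2.12 to 4.09 times that of other nuclei. Pooled over matrices of different level, of which WT 3 dpa gave 208 of the 503 nuclei with 4 or more UMIs of the rule genes, it was 1896 CPM in those nuclei (95% exact Poisson interval 1792 to 2004), 1318 CPM with 3, 874 CPM with 2, 496 CPM with 1 and 440.3 CPM (434 to 447) with 0. Nuclei with 1 UMI, just outside the rule, were thus closer to those with none than to those with 2. Within the rule the matrices differed. In mutant 3 dpa the level was flat, with 1442, 1228 and 1468 CPM at 2, 3 and 4 or more UMIs, and in mutant UI it was 1206, 1434 and 2115 CPM. In WT 3 dpa it was 522, 1675 and 2221 CPM, and in WT UI 591, 465 and 1199 CPM, the first 2 from 15 and 12 UMIs. Of 12 of these markers with enough counts, 3 passed the fold used below, *itgb3b*, *fermt3b* and *f5*, against 1.28% of all genes tested. Enough counts meant at least 20 UMIs in thrombocyte nuclei, so markers scarce there did not enter and nothing is read from this count. The sums rest unevenly on their genes. *itgb3b* alone gave 81 of 312 UMIs in mutant 3 dpa and 123 of 451 in mutant UI. In WT it gave 315 of 806 at 3 dpa and 48 of 145 at UI. In mutant 3 dpa, where the ratio of the sums was lowest, *tbxas1* was not higher in thrombocyte nuclei. It gave 426 of their 1414 CPM and 495 of the 667 CPM in other nuclei. Defining markers of mammalian platelets were at or near 0: *gp9* had 0 UMIs in mutant 3 dpa, 2 in mutant UI, 11 in WT 3 dpa and 0 in WT UI. *p2ry12* had 1 UMI each in mutant UI and WT 3 dpa and 0 elsewhere, and *alox12* had 3 in mutant UI, 2 in WT 3 dpa and 0 elsewhere. In CPM *alox12* was below other nuclei in every matrix. *gp9* was below them in all but WT 3 dpa (23.5 against 18.7 CPM), and *p2ry12* in all but mutant UI (3.83 against 2.69 CPM).

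Cardiomyocyte, macrophage and erythroid markers were lower than in other nuclei in every matrix. Those of endothelium, neutrophils and lymphocytes were higher in some matrices and lower in others. Those of fibroblasts, mural cells and progenitors were higher. The 11 cardiomyocyte markers took 45030.1 CPM in thrombocyte nuclei of mutant 3 dpa, 27560.2 in mutant UI, 40508 in WT 3 dpa and 66626 in WT UI, against 49219 in mutant 3 dpa, 37213 in mutant UI, 52529 in WT 3 dpa and 78754 in WT UI in other nuclei. As sums, in which deep nuclei weigh more, thrombocyte nuclei therefore had 0.741 to 0.915 times the cardiomyocyte CPM of other nuclei of their matrix. The median thrombocyte nucleus had 3.56% of its UMIs from these markers in mutant 3 dpa and 1.71% in mutant UI. In WT the medians were 1.47% at 3 dpa and 2.56% at UI. Macrophage nuclei chosen by a like rule carried 36666 CPM in mutant 3 dpa, 23237 in mutant UI, 38100.1 in WT 3 dpa and 47573 in WT UI. The part of these UMIs in the results was not tested. Macrophage markers summed to 90.6 to 490.0 CPM in thrombocyte nuclei, against 162 to 739 CPM in other nuclei; the rule itself excluded 2 of these genes. Neutrophil markers gave 27.2 to 53.6 CPM (0.866 to 1.25 times other nuclei), with *lyz* at 0 UMIs in all 4 matrices. T or NK lymphocyte markers gave 77.1 to 157 CPM (0.795 to 1.33 times), with *il7r* at 0. Both genes were near 0 in other nuclei too, at most 4.60 and 2.69 CPM. B lymphocyte markers gave 22.7 to 68.5 CPM (0.448 to 1.55 times). Endothelial or endocardial markers, of which the rule limited *flt1*, gave 544 to 1444 CPM (0.71 to 1.17 times). Erythroid markers ranged most, with 526 CPM in mutant 3 dpa, 4981 CPM in mutant UI, 1562 CPM in WT 3 dpa and 595 CPM in WT UI, against 693 in mutant 3 dpa, 5112 in mutant UI, 2728 in WT 3 dpa and 738 in WT UI in other nuclei. The rule also limited 2 erythroid genes, *slc4a1a* and *rhag*, so the lower erythroid level was in part set by the rule. It limited *tbx18* of the fibroblast or epicardial list too. Fibroblast or epicardial markers (1.28 to 3.75 times other nuclei) and mural markers (1.2 to 1.87 times) were above other nuclei, as were progenitor markers (1.5 to 1.77 times). In the first pair of lists 1 gene each stood out: *fn1b* and *myh11a* passed the fold below, while *col1a1a*, *col5a1*, *cspg4* and *abcc9* had ratios within 0.35 of 0 on the log2 scale. The progenitor list also rested on 1 gene. *meis1b* gave 192 of its 201 UMIs in mutant 3 dpa and 316 of 345 in mutant UI. In WT it gave 632 of 676 at 3 dpa and 200 of 213 at UI.

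Thrombocyte nuclei made up 1.90% of nuclei in mutant 3 dpa (174 of 9140; 95% Clopper-Pearson interval 1.63 to 2.21), 2.57% in mutant UI (255 of 9932; 2.27 to 2.90), 2.93% in WT 3 dpa (305 of 10394; 2.62 to 3.28) and 1.09% in WT UI (89 of 8178; 0.875 to 1.34). The difference of 3 dpa minus UI was -0.66 percentage points in the mutant and 1.85 points in WT. Mutant minus WT was -1.03 points at 3 dpa and 1.48 points at UI. Thrombocyte nuclei had median depths of 841.5 UMIs in mutant 3 dpa, 759 in mutant UI, 945 in WT 3 dpa and 1090 in WT UI, against 953 in mutant 3 dpa, 977 in mutant UI, 1057 in WT 3 dpa and 1728 in WT UI in other nuclei. The same marker threshold was also met by nuclei chosen by markers of other cell types. Among macrophage nuclei it was met by 1.56% in mutant 3 dpa, 2.43% in mutant UI, 5.66% in WT 3 dpa and 4.35% in WT UI (median depths 733 to 1350 UMIs). Among endothelial or endocardial nuclei these shares were 1.51% in mutant 3 dpa, 2.11% in mutant UI, 5.43% in WT 3 dpa and 3.77% in WT UI. Among erythroid nuclei they were 2.75% in mutant 3 dpa, 5.04% in mutant UI, 5.26% in WT 3 dpa and 9.65% in WT UI. Among all kept nuclei the shares were 1.99% in mutant 3 dpa, 3.1% in mutant UI, 4.51% in WT 3 dpa and 1.74% in WT UI. These include the thrombocyte nuclei themselves and so give no background for them. Unlike the thrombocyte shares, all these shares were taken before the excluding genes were applied. In both mutant matrices the thrombocyte share lay within the range of the macrophage, endothelial or endocardial and erythroid nuclei. In both WT matrices it lay below that range. Neither the thrombocyte shares nor their differences are therefore read as amounts of thrombocytes in the heart. The excluding genes kept out 8 nuclei in mutant 3 dpa, 53 in mutant UI, 164 in WT 3 dpa and 53 in WT UI, and with 0 UMIs of them allowed the mutant difference turned to 0.0613 points.

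**Figure D1:**
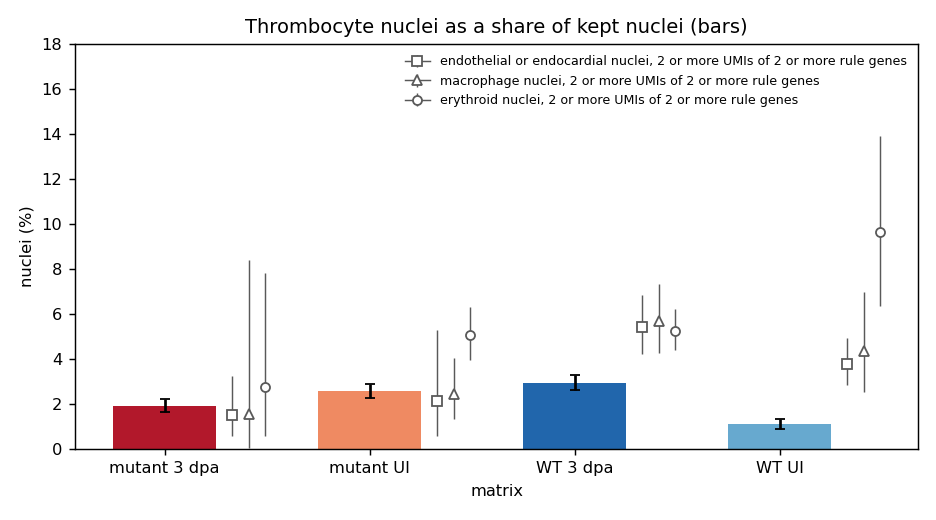
Bars show thrombocyte nuclei as a percentage of kept nuclei in each matrix, and open symbols the percentage of endothelial or endocardial, macrophage and erythroid nuclei that met the same marker threshold; lines are 95% Clopper-Pearson intervals. The bars run from 1.09% in WT UI to 2.93% in WT 3 dpa, and in both WT matrices the open symbols lie above the bar.

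What the nuclei expressed was compared with all other kept nuclei of the same matrix. A gene counted as raised when the log2 ratio of CPM + 100, averaged over the 4 matrices, was at least 1 (2-fold) and the log2 ratio was above 0 in each of the 4; the added 100 CPM understates the change of low genes. Of 7030 genes with at least 20 UMIs in thrombocyte nuclei, 90 were raised, which is 1.28%. By the mirrored rule 0 were lowered (0%), but a gene scarce in thrombocyte nuclei did not enter, so nothing is read from that count. These 90 genes, which leave out the 4 genes of the rule, are called the raised genes here. Together they took 37996 CPM in thrombocyte nuclei of mutant 3 dpa, 53463 in mutant UI, 59974 in WT 3 dpa and 37485 in WT UI. Other nuclei had 8198 CPM in mutant 3 dpa, 11672 in mutant UI, 12413 in WT 3 dpa and 8319 in WT UI, and macrophage, erythroid and endothelial or endocardial nuclei between 8478 and 15934 CPM. In every matrix the sum was higher in thrombocyte nuclei than in these types. Nuclei that met the marker threshold but were kept out by the excluding genes had 40024 CPM in mutant 3 dpa, 41460.1 in mutant UI, 28381 in WT 3 dpa and 12406 in WT UI, above the thrombocyte nuclei in mutant 3 dpa, where there were 8 of them, and below in the others. Mural, fibroblast and epicardial nuclei were not among the types compared, and the types compared were allowed at most 1 UMI of the rule genes. For 75 of the 90 genes thrombocyte nuclei were above macrophage, erythroid and endothelial or endocardial nuclei in every matrix. For 15 another of these types was as high or higher in at least 1 matrix. Macrophage nuclei were so for 12, among them *lcp2a*, *itpr2*, *luzp1*, *lpar1*, *fgl2a* and *ptprc*. Endothelial or endocardial nuclei were so for *klhl4*, *tfpia* and *sept12*. Since the genes were chosen on these nuclei, the sums are a description.

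**Figure D2:**
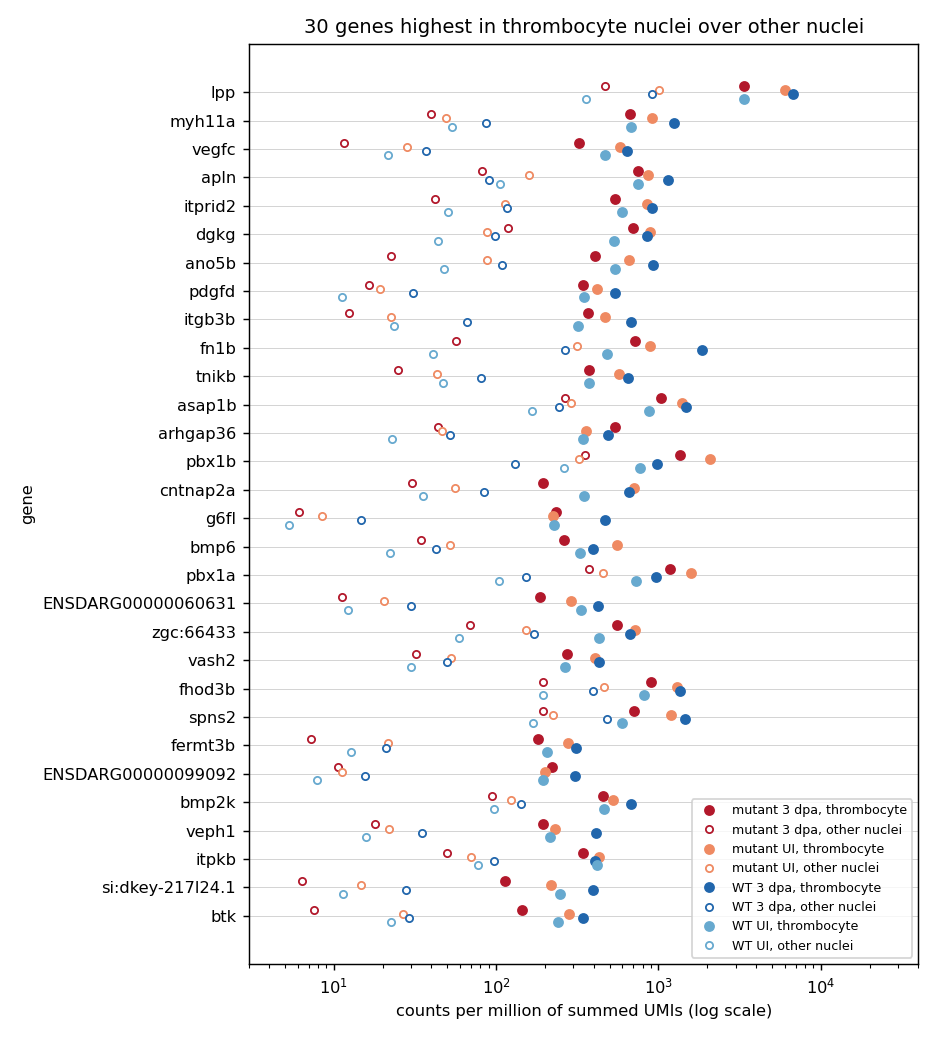
CPM of summed UMIs (log scale) for the 30 genes with the highest ratio, in thrombocyte nuclei (filled) and other kept nuclei (open) of each matrix. For every gene the filled point of a matrix lies to the right of its open point, as the rule for raised genes requires. The genes run from *lpp* at 3356 to 6730 CPM in thrombocyte nuclei down to *btk* at 145 to 342 CPM.

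Single nuclei showed the same genes at widely different strength. The share of a nucleus's UMIs from the raised genes had a median of 4.19% in thrombocyte nuclei of mutant 3 dpa, 6.25% in mutant UI, 8.61% in WT 3 dpa and 4.53% in WT UI, against 0.750% in mutant 3 dpa, 1.03% in mutant UI, 1.19% in WT 3 dpa and 0.743% in WT UI in other nuclei. The lowest thrombocyte nucleus had 0.278% and the highest 23.3%. The 95th percentile of other nuclei was exceeded by 147 of 174 thrombocyte nuclei in mutant 3 dpa, 200 of 255 in mutant UI, 240 of 305 in WT 3 dpa and 64 of 89 in WT UI. At or under the median of other nuclei lay 4 in mutant 3 dpa, 15 in mutant UI, 23 in WT 3 dpa and 1 in WT UI of them, so the rule also took in nuclei in which these genes did not stand out. Nuclei with more UMIs of the rule genes carried more of the raised genes: pooled over matrices, 63922 CPM with 4 or more, 41899 CPM with 3 and 24324 CPM with 2, against 11885 CPM in nuclei with 1. In this pool WT 3 dpa gave 208 of the 503 nuclei with 4 or more. The raised genes were chosen on these nuclei, so this order and the counts above the 95th percentile are a description. The scrublet doublet score marked 0 nuclei in mutant 3 dpa, 0 in mutant UI, 1 in WT 3 dpa and 0 in WT UI and had not worked; removing the 6% of nuclei with the highest scores took out 9 thrombocyte nuclei in mutant 3 dpa, 23 in mutant UI, 29 in WT 3 dpa and 0 in WT UI. In mutant 3 dpa 15 thrombocyte nuclei exceeded 3000 UMIs, as did 12 in mutant UI, 44 in WT 3 dpa and 11 in WT UI.

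**Figure D3:**
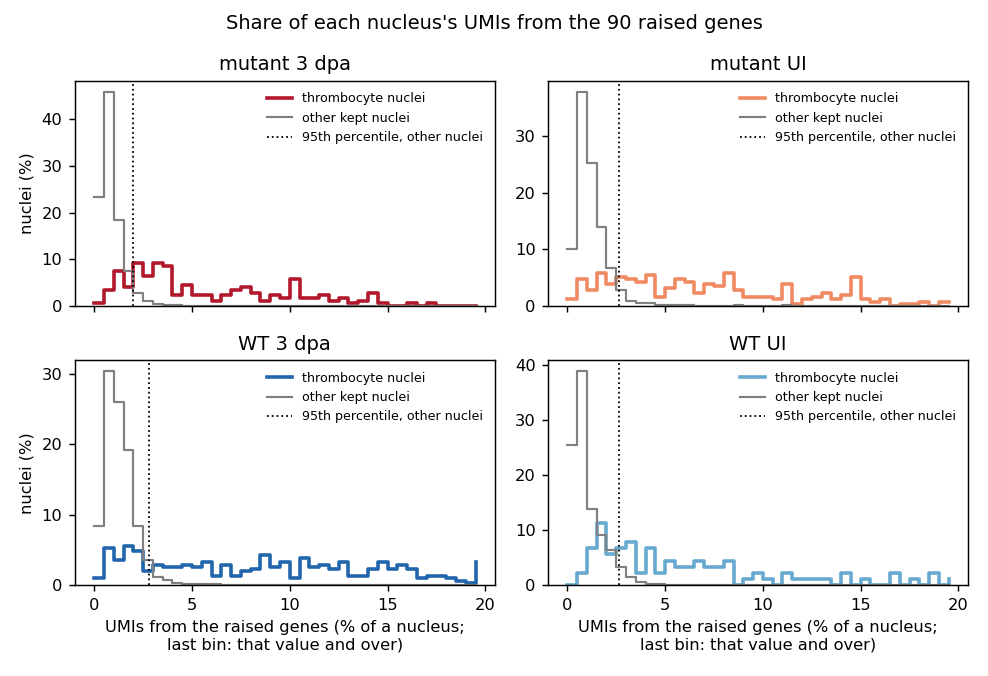
Share of each nucleus's UMIs that came from the 90 raised genes, as the percentage of thrombocyte (coloured) and other kept nuclei (grey) in bins, 1 panel per matrix. Other nuclei peak near 1%, while thrombocyte nuclei spread from that peak to about 20%, with medians of 4.19% to 8.61%.

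The receptors come first by role. *itgb3b*, the beta 3 chain that pairs with integrin alpha IIb, had 367 CPM in mutant 3 dpa, 471 CPM in mutant UI, 674 CPM in WT 3 dpa and 321 CPM in WT UI, against 12.3 to 66.1 CPM in other nuclei. Its log2 ratio was 2.07 ± 0.21 (mean and SD over the 4 matrices, here and below), and the 4 levels of thrombocyte nuclei lay above all 4 of other nuclei. The second beta 3 gene, *itgb3a*, was low, at 49.9 CPM in mutant 3 dpa, 57.4 CPM in mutant UI, 64.2 CPM in WT 3 dpa and 13.4 CPM in WT UI. Other nuclei had 0.790 to 6.87 CPM, below thrombocyte nuclei in every matrix. The ratio was 0.49, which the added 100 CPM holds down at this level. *itgb3b* was the 1 raised gene among 9 measured adhesion receptors and integrins, against 1.28% of all genes; a single gene is not read as a result about a list. *itga5*, the fibronectin receptor chain, was high in all nuclei and had a ratio of -0.25, and *itgav*, another partner of beta 3, had 0.39. *itga2.2*, named for the collagen receptor chain alpha 2, was a raised gene outside the lists, picked after its values were seen, and had 72.5 to 171 CPM, against 3.36 to 11.2 CPM in other nuclei. After each nucleus was thinned to 500 UMIs, *itgb3b* had a UMI in this share of thrombocyte nuclei: 20.9% in mutant 3 dpa, 23.3% in mutant UI, 35.4% in WT 3 dpa and 21.3% in WT UI, against 0% to 2.46% of macrophage, erythroid and endothelial or endocardial nuclei over the 4 matrices; thinning left out 35 and 40 thrombocyte nuclei of mutant 3 dpa and mutant UI and none of WT, and without thinning the shares were 32.8% to 52.1%.

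The machinery that activates the integrin was the list with the most raised genes, 6 of 22 measured, against 1.28% of all genes. Its median ratio was 0.39, against 0.00 over all genes tested. Measured genes had at least 20 UMIs in thrombocyte nuclei, so listed genes scarce there did not enter. The lists were also chosen with earlier results of these data known. Nothing is therefore read from the counts of raised genes, here and in the lists below. *fermt3b*, which encodes kindlin-3, had 181 CPM in mutant 3 dpa, 279 CPM in mutant UI, 312 CPM in WT 3 dpa and 207 CPM in WT UI, against 7.21 to 21.6 CPM in other nuclei (log2 ratio 1.56 ± 0.17). *tln1*, talin, which binds the integrin tail beside kindlin, was already abundant elsewhere and had 1641 CPM in mutant 3 dpa, 2067 CPM in mutant UI, 2659 CPM in WT 3 dpa and 1925 CPM in WT UI, against 512 to 827 CPM in other nuclei (1.46 ± 0.12). *rap1b*, the small GTPase that recruits talin, had 1228 CPM in mutant 3 dpa, 1711 CPM in mutant UI, 2073 CPM in WT 3 dpa and 1578 CPM in WT UI, against 352 to 754 CPM in other nuclei (1.38 ± 0.27). That the 3 genes were higher in thrombocyte nuclei than in other nuclei of every matrix follows from the rule for raised genes. The kinases *btk* and *src*, with ratios of 1.51 and 1.1, and the adaptor *lcp2a* (SLP-76, 1.03), which relay signals from platelet receptors in mammals, made up the rest. In at least 1 matrix macrophage nuclei had as much *lcp2a* as thrombocyte nuclei or more. *dok2*, *yrk* and *plcg2* came near the threshold with 0.97, 0.94 and 0.70, and *syk* had 0.52. *rasgrp2*, the calcium-dependent activator of RAP1 in mammalian platelets, gave 2 UMIs in mutant 3 dpa, 12 in mutant UI, 11 in WT 3 dpa and 5 in WT UI, and a ratio of 0.01.

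None of 11 measured agonist receptors and eicosanoid genes was raised, against 1.28% of all genes, and nothing is read from the count. *ptgir*, the prostacyclin receptor, which restrains platelets in mammals, came closest with 49.9 CPM in mutant 3 dpa, 149 CPM in mutant UI, 237 CPM in WT 3 dpa and 147 CPM in WT UI, against 11.7 to 62.0 CPM in other nuclei (0.74 ± 0.28). *alox5a*, a lipoxygenase, had a ratio of 0.64 and *ptgs1*, the cyclooxygenase that starts thromboxane synthesis, 0.50. *tbxas1*, thromboxane synthase, had 426 CPM in mutant 3 dpa, 283 CPM in mutant UI, 79.2 CPM in WT 3 dpa and 147 CPM in WT UI, and a ratio of -0.16. The thromboxane receptor *tbxa2r* gave 4 UMIs in mutant 3 dpa, 12 in mutant UI, 3 in WT 3 dpa and 2 in WT UI, too few to set its level.

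Of 21 measured coagulation and granule genes, 3 were raised, against 1.28% of all genes. *f5*, coagulation factor V, which platelets carry in their granules in mammals, had 127 CPM in mutant 3 dpa, 126 CPM in mutant UI, 263 CPM in WT 3 dpa and 100.3 CPM in WT UI, against 4.35 to 13.1 CPM in other nuclei (1.19 ± 0.34). *nbeal2*, needed for alpha granules in humans, had 249 CPM in mutant 3 dpa, 268 CPM in mutant UI, 244 CPM in WT 3 dpa and 167 CPM in WT UI, against 30.8 to 58.7 CPM in other nuclei (1.21 ± 0.17). *tfpia*, an inhibitor of the tissue factor pathway, had 208 CPM in mutant 3 dpa, 368 CPM in mutant UI, 353 CPM in WT 3 dpa and 221 CPM in WT UI, against 46.8 to 116 CPM in other nuclei (1.13 ± 0.10). Endothelial or endocardial nuclei had 210.3 CPM in mutant 3 dpa, 529.9 in mutant UI, 247 in WT 3 dpa and 112 in WT UI of *tfpia*, as much as or more than thrombocyte nuclei in both mutant matrices. *f13a1b*, a subunit of the fibrin-crosslinking factor XIII, stood just under the threshold at 0.93, with 163 CPM in mutant 3 dpa, 436 CPM in mutant UI, 184 CPM in WT 3 dpa and 114 CPM in WT UI. *vwf*, von Willebrand factor, which endothelium makes too, had a ratio of -0.07, and *srgn*, the granule proteoglycan serglycin, 0.16. The list's median of 0.01 was near that of all genes, 0.00.

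The growth factor ligands split into a few high genes and many at the level of other nuclei. Of 20 measured, 5 were raised, against 1.28% of all genes, and the list's median was 0.03. As for the other lists, nothing is read from the count. *vegfc*, the growth factor of lymphatic vessels, had 326 CPM in mutant 3 dpa, 578 CPM in mutant UI, 644 CPM in WT 3 dpa and 468 CPM in WT UI, against 11.7 to 37.2 CPM in other nuclei (2.25 ± 0.23). *apln*, the apelin peptide that acts on endothelium, had 748 CPM in mutant 3 dpa, 869 CPM in mutant UI, 1142 CPM in WT 3 dpa and 749 CPM in WT UI, against 82.3 to 159 CPM in other nuclei (2.22 ± 0.35). *pdgfd*, a ligand of platelet-derived growth factor receptors, had 344 CPM in mutant 3 dpa, 421 CPM in mutant UI, 537 CPM in WT 3 dpa and 348 CPM in WT UI, against 11.3 to 30.9 CPM in other nuclei (2.09 ± 0.15). These 3 were between the third and the eighth rank of all raised genes. That thrombocyte nuclei exceeded other nuclei in each matrix follows from the rule for raised genes.

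*bmp6*, a bone morphogenetic protein, had 263 CPM in mutant 3 dpa, 559 CPM in mutant UI, 396 CPM in WT 3 dpa and 328 CPM in WT UI, against 22.2 to 52.2 CPM in other nuclei (1.79 ± 0.28). *ccn2a*, connective tissue growth factor, had 118 CPM in mutant 3 dpa, 364 CPM in mutant UI, 329 CPM in WT 3 dpa and 147 CPM in WT UI, against 9.68 to 61.2 CPM in other nuclei (1.23 ± 0.31). *tgfb1b* and *hbegfb* were just under the threshold with 0.96 and 0.85; *hbegfb* had 18.1 CPM in mutant 3 dpa, 176 CPM in mutant UI, 107 CPM in WT 3 dpa and 93.6 CPM in WT UI. The genes of platelet-derived growth factor B, the form named after platelets, were not raised, with -0.13 for *pdgfba* and -0.05 for *pdgfbb*, nor were *tgfb1a* (-0.01), *vegfaa* (-0.17) and *vegfab* (-0.32). *tgfb2* (-0.42) had the lowest ratio of the list. In nuclei thinned to 500 UMIs, a *vegfc* UMI was found in this share of thrombocyte nuclei: 18.7% in mutant 3 dpa, 27.9% in mutant UI, 35.1% in WT 3 dpa and 30.3% in WT UI, against 0% to 3.70% of macrophage, erythroid and endothelial or endocardial nuclei. For *apln* the shares were 36.0% in mutant 3 dpa, 32.6% in mutant UI, 45.6% in WT 3 dpa and 37.1% in WT UI, against 1.01% to 8.78%. For *pdgfd* they were 19.4% in mutant 3 dpa, 21.9% in mutant UI, 30.8% in WT 3 dpa and 25.8% in WT UI, against 0% to 3.38%. Without thinning, the shares of thrombocyte nuclei were 29.9% to 49.2% for *vegfc*, 45.1% to 66.6% for *apln* and 29.8% to 44.6% for *pdgfd*.

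**Figure D4:**
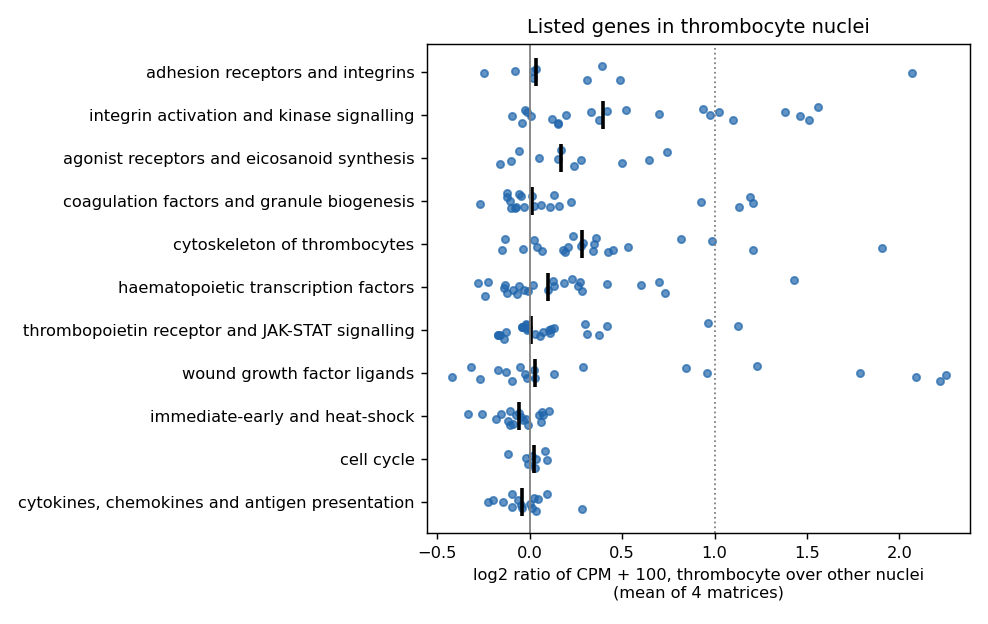
Log2 ratio of CPM + 100 in thrombocyte over other nuclei (mean of the 4 matrices) for each measured gene of 11 gene lists; black bars are list medians, the grey line the median of all genes tested and the dotted line the 2-fold threshold. Integrin activation (6 of 22 genes) and growth factor ligands (5 of 20) have the most genes past the line, and 4 lists have none. Of all genes tested 1.28% were raised, and nothing is read from the counts.

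In the cytoskeleton list 2 of 22 measured genes were raised, against 1.28% of all genes, and the median was 0.28. *flna*, filamin A, which links receptors to actin, had 326 CPM in mutant 3 dpa, 662 CPM in mutant UI, 869 CPM in WT 3 dpa and 441 CPM in WT UI, against 79.5 to 358 CPM in other nuclei (1.21 ± 0.09). The other, *arhgap36*, had 341 to 544 CPM, against 22.9 to 52.0 CPM in other nuclei (1.90 ± 0.21). It entered through a synonym match to the listed name *arhgap6*, and whether it is the gene meant was not checked. The non-muscle myosin genes *myh9a* and *myh9b* had ratios of 0.98 and 0.53, *actn1* (alpha-actinin) 0.82 and *tmsb4x* (thymosin beta 4) 0.42. *tubb1*, the beta 1 tubulin of the platelet marginal band in mammals, had 15.3 to 47.1 CPM, against 0.790 to 11.3 CPM in other nuclei, a level at which the ratio of 0.34 says little.

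The transcription factors of the lineage were low or shared with other nuclei. Of 25 measured, 1 was raised, against 1.28% of all genes, *fli1a*, an ETS factor needed for megakaryocytes in mammals, with 453 CPM in mutant 3 dpa, 678 CPM in mutant UI, 549.8 CPM in WT 3 dpa and 328 CPM in WT UI, against 105 to 149 CPM in other nuclei (1.43 ± 0.33). Endothelial or endocardial nuclei had nearly as much *fli1a*, 396 CPM in mutant 3 dpa, 612 in mutant UI, 410.3 in WT 3 dpa and 229.8 in WT UI. *zfpm1* (FOG1, a partner of GATA1) and *meis1b* followed with 0.70 and 0.73; *zfpm1* had 1654 CPM in mutant 3 dpa, 1818 CPM in mutant UI, 1897 CPM in WT 3 dpa and 1491 CPM in WT UI. Few UMIs were found of 3 factors that act in megakaryocytes of mammals: *gata1a* had 0 in mutant 3 dpa, 16 in mutant UI, 22 in WT 3 dpa and 3 in WT UI, *nfe2* had 4 in mutant 3 dpa, 8 in mutant UI, 18 in WT 3 dpa and 2 in WT UI, and *gfi1b* had 14 in mutant 3 dpa, 12 in mutant UI, 25 in WT 3 dpa and 3 in WT UI. They had ratios of 0.23, 0.26 and 0.42, which say little at such levels, and *runx1* had -0.03. In CPM *gfi1b* had 20.1 to 63.5, against 3.26 to 15.2 in other nuclei. *nfe2* had 13.4 to 38.5, against 1.37 to 7.51. Both were thus scarce, yet above other nuclei in every matrix, and *gata1a* was above them in all but mutant 3 dpa. The homeobox genes *pbx1a* and *pbx1b*, outside the lists, were raised far more clearly: *pbx1b* had 1359.7 CPM in mutant 3 dpa, 2067 CPM in mutant UI, 986 CPM in WT 3 dpa and 775 CPM in WT UI, against 131 to 356 CPM in other nuclei (1.88 ± 0.51), and *pbx1a* had a ratio of 1.79 ± 0.31.

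Signalling below the thrombopoietin receptor had 1 raised gene of 26 measured, against 1.28% of all genes, which is not read as a result about the list. The gene was *ptpn11b*, a SHP2 phosphatase gene (1.13). The adaptor *gab2* was next with 0.96. The kinases *jak2a* and *jak2b* had 0.13 and 0.07, *stat3* -0.13, and *stat5a* and *stat5b* -0.17 and -0.01. *thpo*, the ligand, gave 1 UMI in mutant 3 dpa, 0 in mutant UI, 15 in WT 3 dpa and 9 in WT UI. None of 19 immediate-early and heat-shock genes, 8 cell cycle genes or 15 cytokine, chemokine and antigen presentation genes was raised, with list medians of -0.06, 0.02 and -0.04. With 1.28% of all genes raised, nothing is read from these counts.

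Several raised genes with the highest ratios lay outside the functional lists. *lpp*, a LIM protein of focal adhesions, led with 3377 CPM in mutant 3 dpa, 6068 CPM in mutant UI, 6729.9 CPM in WT 3 dpa and 3356 CPM in WT UI, against 357 to 1014 CPM in other nuclei (2.69 ± 0.19), and *myh11a*, known as the smooth muscle myosin heavy chain, was the second with 666 CPM in mutant 3 dpa, 919 CPM in mutant UI, 1249 CPM in WT 3 dpa and 682 CPM in WT UI, against 40.0 to 87.3 CPM in other nuclei (2.61 ± 0.24). In thinned nuclei *myh11a* had a UMI in this share of thrombocyte nuclei: 32.4% in mutant 3 dpa, 40% in mutant UI, 44.6% in WT 3 dpa and 43.8% in WT UI, against 0.654% to 5.54% of the 3 other types, and without thinning in 48.9% to 68.5% of thrombocyte nuclei. Mural nuclei, whose marker list holds *myh11a*, were not compared. *fn1b*, a fibronectin gene, had 721 CPM in mutant 3 dpa, 888 CPM in mutant UI, 1861 CPM in WT 3 dpa and 481 CPM in WT UI, against 40.8 to 314 CPM in other nuclei (2.03 ± 0.54), and *spns2*, a transporter of sphingosine 1-phosphate, 595 to 1450.4 CPM, against 170.0 to 481 CPM in other nuclei. *itprid2*, whose product binds the inositol trisphosphate receptor, had the steadiest ratio of the first 10, 2.18 ± 0.03. Further raised genes were picked after their values were seen, with no list or count behind them. They include *itpr2* (1.11) and *itpr3* (1.06), receptors for inositol trisphosphate, *itpkb* (1.53), which phosphorylates it, the calcium pump gene *atp2a3* (1.29), the diacylglycerol kinase gene *dgkg* (2.17) and the protein kinase C gene *prkcaa* (1.33). Of these, *itpr2* was as high or higher in macrophage nuclei in at least 1 matrix. Also raised and named after the fact were *pear1* (1.41), a platelet receptor in mammals, *plek* (1.17), which encodes pleckstrin, the beta-adrenoceptor gene *adrb3a* (1.08), the cyclin gene *ccnd2a* (1.38) and *ptprc* (1.01), the leukocyte antigen CD45. Macrophage nuclei had more *ptprc* than thrombocyte nuclei in all 4 matrices, 615 CPM against 249 in mutant 3 dpa, 750.1 against 398 in mutant UI, 1047 against 736 in WT 3 dpa and 1364 against 535 in WT UI.

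Injured and uninjured hearts were compared by the sums over thrombocyte nuclei of each matrix. A gene counted as changed when its log2 ratio of CPM + 100 was at least 1 or at most -1. In the mutant, 120 of 4010 genes (2.99%) were higher and 87 (2.17%) lower at 3 dpa than at UI. In WT, 43 of 4725 genes (0.91%) were higher and 38 (0.804%) lower. Most of the leading genes had a similar ratio in all other nuclei of these matrices. In the mutant *fkbp5*, a stress-responsive chaperone gene, had 3268 CPM at 3 dpa, against 130.2 CPM at UI, a log2 ratio of 3.87 in thrombocyte nuclei and 4.04 in other nuclei. *irs1* had 2.69 and 2.67, and the haemoglobin gene *hbba1*, at 204 CPM at 3 dpa against 2374 CPM at UI, had -3.02 and -2.82. In WT *col12a1b*, a collagen gene, gave 340 UMIs at 3 dpa and 1 UMI at UI (counting interval of the ratio 19.4 to 4309.6) and had 2.96 in thrombocyte and 2.69 in other nuclei. *kcnh6a* had 2.02 and 1.99, and *col5a1* 1.97 and 2.06. Genes that moved alike in all nuclei are not read as changes of thrombocytes.

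A few genes had a ratio farther from 0 in thrombocyte nuclei than elsewhere, and they were picked after their values were seen. The added 100 CPM shrinks a ratio more where the gene is lower, and its part was not tested. In WT *luzp1*, a raised gene, had 481 CPM at 3 dpa, against 107 CPM at UI, with a log2 ratio of 1.49 (counting interval of the ratio 2.71 to 8.01) and 0.50 in other nuclei. Macrophage nuclei matched or exceeded thrombocyte nuclei in *luzp1* in at least 1 matrix. *adam12*, a metalloprotease gene, had 212 CPM at 3 dpa, against 903 CPM at UI, a ratio of -1.69 against -0.39 in other nuclei. *nectin1b* had -1.55 against -0.54, *tmem88b* -1.38 against -0.49 and *dchs1a* -1.29 against -0.36. The summed endothelial or endocardial markers were 787 CPM in thrombocyte nuclei of WT 3 dpa and 1444 CPM in those of WT UI; their part was not tested. In the mutant the keratin gene *krt4* gave 1 UMI at 3 dpa and 85 UMIs at UI, with -2.02 in thrombocyte and -0.99 in other nuclei.

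The raised genes as a group, whose contrast with other nuclei used the same matrices, ran in opposite directions in the 2 genotypes. In the mutant 9 of 90 had a ratio above 0 for 3 dpa against UI, as did 1605 of all 4010 genes; their median was -0.38, and that of all genes was -0.10. In WT 86 of 90 were above 0, as were 2612 of all 4725 genes, with a median of 0.48, against 0.04 over all genes. In other nuclei the same genes had medians lower by 0.07 than all genes in the mutant and higher by 0.16 in WT, while in thrombocyte nuclei the distances were -0.28 and 0.43. These distances are not compared between kinds of nuclei, since the added 100 CPM shrinks ratios more in other nuclei, where these genes were lower. Without it, the raised genes of other nuclei summed to 8198 CPM at 3 dpa and 11672 at UI in the mutant. In WT they summed to 12413 and 8319. The sums in thrombocyte nuclei ran the same way, 37996 and 53463 in the mutant and 59974 and 37485 in WT. Past the 2-fold threshold were 2 of 90 in the mutant, *ccn2a* and *cntnap2a*, both lower at 3 dpa, and 4 of 90 in WT, *fn1b*, *lpar1*, *luzp1* and *spns2*, all higher at 3 dpa. Of all genes tested, 2.17% were lower in the mutant and 0.91% higher in WT, and since the genes were chosen on these nuclei nothing is read from the counts. Markers the rule did not use moved less in the mutant, with a distance of -0.02 over 8 genes and 3 above 0, and by 0.30 in WT over 10 genes, 9 of them above 0.

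**Figure D5:**
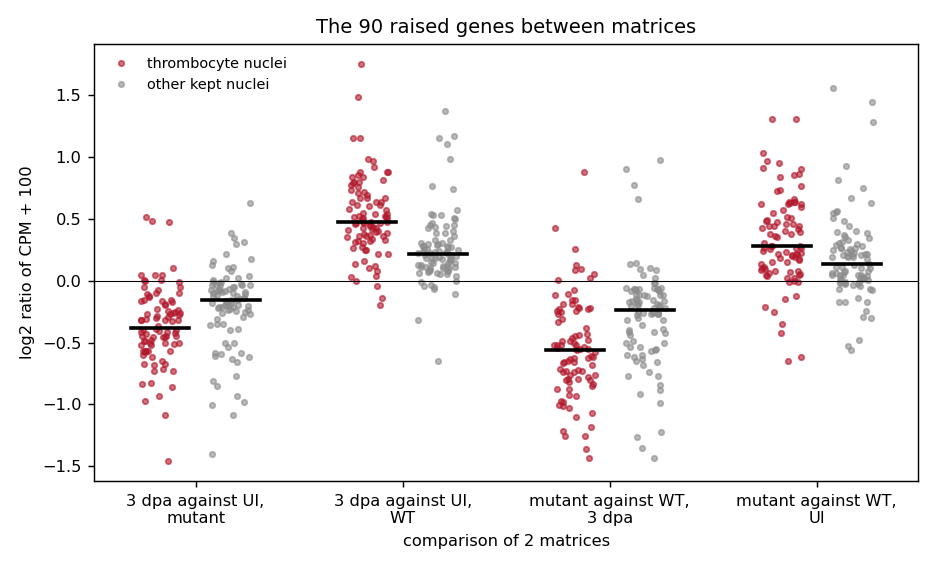
Log2 ratio of CPM + 100 for each of the 90 raised genes in 4 comparisons of 2 matrices, in thrombocyte nuclei (red) and other kept nuclei (grey); black bars are medians. The thrombocyte medians are -0.38 for 3 dpa against UI in the mutant, 0.48 in WT, -0.56 for mutant against WT at 3 dpa and 0.28 at UI, each farther from 0 than the grey median. The added 100 CPM shrinks the grey ratios more, since these genes were lower in other nuclei, so the 2 medians are not compared.

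The cardiomyocyte RNA carried by thrombocyte nuclei moved the other way. It was 45030.1 CPM at 3 dpa and 27560.2 CPM at UI in the mutant, and 40508 CPM at 3 dpa and 66626 CPM at UI in WT. The median share per nucleus ran the same way, 3.56% at 3 dpa and 1.71% at UI in the mutant. In WT it was 1.47% at 3 dpa and 2.56% at UI. Cardiomyocyte markers moved alike in other nuclei, with 49219 CPM at 3 dpa and 37213 CPM at UI in the mutant. In WT other nuclei had 52529 CPM at 3 dpa and 78754 CPM at UI. The movement is therefore not read as a change of thrombocytes. Among nuclei with 4 or more UMIs of the rule genes, the raised genes took 42463 CPM at 3 dpa and 67250 CPM at UI in the mutant, and 78750 CPM at 3 dpa and 44028 CPM at UI in WT. Cardiomyocyte markers in these nuclei took 45974 CPM and 24715 CPM in the mutant, and 35098 CPM and 65651 CPM in WT, at 3 dpa and UI. The part of this RNA in the shifts of the raised genes was not tested.

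To describe the raised genes without their common level, each was also taken as a percentage of the UMIs of all 90, a measure and examples chosen after the values were seen. Most kept their place: between 3 dpa and UI, 4 genes had a share at least 1.5 times higher and 5 a share at least 1.5 times lower in the mutant, and 5 and 6 in WT, with a counting interval clear of 1. Of the raised genes' UMIs, *fn1b* had 1.90% in mutant 3 dpa, 1.66% in mutant UI, 3.1% in WT 3 dpa and 1.28% in WT UI. *lpp* had 8.89% in mutant 3 dpa, 11.3% in mutant UI, 11.2% in WT 3 dpa and 8.95% in WT UI, so it was lower at 3 dpa in the mutant and higher in WT. *apln* stayed at 1.97% in mutant 3 dpa, 1.63% in mutant UI, 1.90% in WT 3 dpa and 2.0% in WT UI, and *vegfc* at 0.859% in mutant 3 dpa, 1.08% in mutant UI, 1.07% in WT 3 dpa and 1.25% in WT UI. *ccnd2a*, a D-type cyclin, had 4.60% in mutant 3 dpa, 3.16% in mutant UI, 1.51% in WT 3 dpa and 2.80% in WT UI, higher at 3 dpa in the mutant and lower at 3 dpa in WT. *ccn2a* had 0.310% in mutant 3 dpa, 0.680% in mutant UI, 0.549% in WT 3 dpa and 0.392% in WT UI, and *fgl2a*, a fibrinogen-like gene, 0.692% in mutant 3 dpa, 0.301% in mutant UI, 0.417% in WT 3 dpa and 0.410% in WT UI.

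Mutant and WT thrombocyte nuclei were compared at each state. At 3 dpa, 156 of 5040 genes (3.1%) were higher and 90 (1.79%) lower in the mutant than in WT; at UI, 131 of 3654 (3.59%) were higher and 132 (3.61%) lower. Again most leading genes had a similar ratio in other nuclei. At 3 dpa *zgc:158463* had 1840.2 CPM in the mutant, against 44949 CPM in WT, and log2 ratios of -4.54 in thrombocyte and -4.55 in other nuclei. *hcn4*, a pacemaker channel gene, had 2.02 and 1.95. At UI *hbba1* had 2374 CPM in the mutant, against 86.9 CPM in WT, with 3.73 and 3.45. Genes that differed more in thrombocyte nuclei, picked after their values were seen, were *pex5la* at 3 dpa (-1.92 against -0.92 in other nuclei) and the keratin gene *krt15* at UI (524 CPM in the mutant, against 20.1 CPM from 3 UMIs in WT, 2.38 against 1.09).

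Of the raised genes, 9 of 90 had a ratio above 0 for mutant against WT at 3 dpa, as did 2105 of all 5040 genes (median -0.56, against -0.07 over all genes). At UI 80 of 90 did, as did 2129 of all 3654 genes (0.28, against 0.09). At 3 dpa 11 were past 2-fold, all lower in the mutant, among them *fn1b*, *pear1*, *flna*, *ano5b* and *ptprc*. At UI 3 were, all higher in the mutant: *luzp1*, *pbx1a* and *pbx1b*. Of all genes tested, 1.79% were lower in the mutant at 3 dpa and 3.59% higher at UI. Since the raised genes were chosen on these nuclei, nothing is read from the counts. Taken as shares of the raised genes' UMIs, *pbx1b* had 3.58% in mutant 3 dpa, 3.87% in mutant UI, 1.64% in WT 3 dpa and 2.07% in WT UI, and *pbx1a* had 3.09% in mutant 3 dpa, 2.99% in mutant UI, 1.61% in WT 3 dpa and 1.94% in WT UI. Both were higher in each mutant matrix than in either WT matrix. In other nuclei *pbx1b* had 356 CPM in mutant 3 dpa, 323 in mutant UI, 131 in WT 3 dpa and 264 in WT UI. *ptprc* had 0.656% in mutant 3 dpa, 0.745% in mutant UI, 1.23% in WT 3 dpa and 1.43% in WT UI of these UMIs, lower in each mutant matrix than in either WT matrix, and *limd2*, *zmat4b* and *ncam2* had the same order. Since the gene tables differ by genotype, a difference of a single gene between mutant and WT cannot be told apart from how its reads were assigned.

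The gene lists, which share some genes with the raised genes, are set beside all genes, of which 1605 of 4010 were above 0 for 3 dpa against UI in the mutant and 2612 of 4725 in WT, and beside the same list in other nuclei. For integrin activation, 1 of 18 genes measured was above 0 in the mutant and 14 of 16 in WT. The list's medians were -0.42 in the mutant and 0.31 in WT in thrombocyte nuclei, and -0.32 and 0.18 in other nuclei, which ran the same way. *tln1* had ratios of -0.32 in the mutant and 0.45 in WT. For the cytoskeleton list 4 of 18 were above 0 in the mutant and 16 of 21 in WT, with medians of -0.57 and 0.39 in thrombocyte nuclei and -0.37 and 0.24 in other nuclei. In this list *tmsb4x* had -1.12 in the mutant and 1.00 in WT. Of the growth factor ligands 5 of 15 were above 0 in the mutant and 12 of 17 in WT, not far from the shares of all genes. Among them *vegfc* had -0.67 in the mutant and 0.39 in WT, *pdgfd* -0.23 and 0.51, and *apln* -0.19 and 0.55. For the genes below the thrombopoietin receptor 4 of 21 were above 0 in the mutant and 15 of 23 in WT. Relative to all genes the list lay at -0.22 in the mutant and 0.09 in WT in thrombocyte nuclei, and at -0.18 and 0.15 in other nuclei, so the WT shift was smaller in thrombocyte nuclei. Immediate-early and heat-shock genes had medians of 0.12 over 7 genes in the mutant and 0.07 over 16 in WT. Over all genes tested, the medians were -0.10 in the mutant and 0.04 in WT, and TMM (trimmed mean of M-values) scaling moved the mutant one to 0.04, a shift of over 0.1 that applies to all its genes. With TMM the genes past 2-fold at 3 dpa split into 180 higher and 53 lower in the mutant and 61 higher and 26 lower in WT. For mutant against WT it gave 180 higher and 87 lower at 3 dpa and 94 higher and 155 lower at UI, and CPM over each matrix's own genes gave 121 and 111 at 3 dpa and 91 and 159 at UI. *fkbp5* and *hbba1* kept their directions with TMM.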

How the data were processed

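Single-nucleus RNA libraries of 4 groups were analysed, each from 1 matrix of raw UMI counts. Per the file headers, cellranger 7.0.0 produced the deposited counts; GRCz11, Cell Ranger 7.0.0, R 4.2.0 and Seurat 4.3.0 stand in the submitters' processing notes. Nothing ties barcodes to the 16 labelled samples, so each group is 1 sample and no test was made. Counts of kept nuclei (at least 500 UMIs, at most 5% mitochondrial) were summed by type and matrix and divided by the total over the 24753 shared gene symbols (CPM). Thrombocyte nuclei totalled 220630 UMIs in mutant 3 dpa, 261210 in mutant UI, 467466 in WT 3 dpa and 149582 in WT UI. Ratios are log2 of CPM + 100, with exact 95% intervals from the counts (Clopper-Pearson for shares, Poisson for levels, conditional binomial for ratios). Genes needed at least 20 UMIs in thrombocyte nuclei, summed over the 4 matrices against other nuclei and over both matrices in a comparison of 2. In comparisons between matrices, the rule named the 12 highest and 12 lowest genes with an interval clear of 1, leaving out mitochondrial and ribosomal protein genes. Against other nuclei it named the 30 highest, all listed genes, the rule's genes and cited4a. The members and lists were chosen with earlier results of these data known. Of 450 listed names, 431 matched as written and 4 by synonym. The code used python 3.11.15, numpy 2.4.6, scipy 1.17.1, pandas 2.3.3, scanpy 1.11.5 (scrublet) and edgeR 4.0.16 (TMM) and was tested on simulated data. Alternatives were other limits and rules, pseudocounts, scaling, doublet removal and leaving out a matrix.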

Additional observations from a re-analysis of the deposited data

Results flagged for a closer look

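Effects of 3 dpa against UI had opposite signs in the mutant and in WT for several results, and the difference was not tested. All depend on the matrix labels, and an exchange of the mutant labels was not tested. Fibroblast or epicardial markers of other nuclei had 233 CPM in mutant 3 dpa and 1438 in mutant UI. In WT they had 1757 at 3 dpa and 271 at UI. Mutant UI thus lay nearer to WT 3 dpa, and mutant 3 dpa nearer to WT UI. Mural markers ran alike in both genotypes, 646 at 3 dpa and 846 at UI in the mutant, 1413 and 1716 in WT. The share of thrombocyte nuclei differed by -0.66 percentage points in the mutant and 1.85 in WT. The median log2 ratio relative to all genes was -0.28 in the mutant and 0.43 in WT for the raised genes, and -0.32 and 0.26 for integrin activation. It was -0.48 in the mutant and 0.35 in WT for the cytoskeleton list, and -0.26 over 3 genes and 0.45 over 4 genes for the cell cycle list. Of single genes, *col5a1* had -1.73 in the mutant and 1.97 in WT, and *hbba1* had -3.02 and 1.53. *fn1a* had -1.62 in the mutant, where 3 dpa gave 0 UMIs so that the value depends on the added 100 CPM, and 2.03 in WT.

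Barcodes outside the UMI and mitochondrial limits also met the marker rule: 1.68% in mutant 3 dpa (54 of 3220), 1.46% in mutant UI (373 of 25552) and 1.97% in WT 3 dpa (35 of 1773), each above the limit that a count of 0 allows. WT UI had 1 of 131 (0.763%), under its limit of 2.29%.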

How the results depend on the processing

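No paired analysis was possible because each group came as 1 matrix whose barcodes are not tied to labelled samples; leaving out a sample could not be done either. Alternatives with at least 4 UMIs of the rule genes were added after seeing the data. So were those with each nucleus thinned to 500 UMIs before the rule and with CPM without *zgc:158463*. With such thinning the thrombocyte shares were 1.09% in mutant 3 dpa, 1.69% in mutant UI, 2.09% in WT 3 dpa and 0.55% in WT UI. With 0 UMIs of the excluding genes, the share difference of 3 dpa minus UI was 0.0613 points in the mutant (turned) and 1.14 in WT, and mutant minus WT was -0.272 at 3 dpa and 0.808 at UI. Without *thbs1b* in the rule it was 1.19 for WT 3 dpa minus UI and -0.521 for mutant minus WT at 3 dpa. At least 1000 UMIs per nucleus gave -0.159 in the mutant, at least 3 rule UMIs gave 0.961 for mutant minus WT at UI, and at least 4 gave 0.631 there and 1.24 for WT. Genes past 2-fold in WT, 81 as reported, were 125 with at least 3 rule UMIs, 145 with at least 4 and 172 without *thbs1b*. A pseudocount of 10 CPM gave 881 in the mutant, 796 in WT, and for mutant against WT 1241 at 3 dpa and 935 at UI. The raised genes' median relative to all genes in WT was 0.73 without *thbs1b* and 0.66 with at least 4 rule UMIs, and for mutant against WT at 3 dpa -0.79 without *thbs1b*. Immediate-early genes in the mutant turned to -0.23 with at least 4 rule UMIs. Raised genes numbered 41 with at least 1000 UMIs and 282 with 10 CPM added. The cause was not tested. Leaving out 1 matrix at a time gave 85 to 96 raised genes, and a ratio of 3.54 to 5.37 for the further thrombocyte markers in nuclei with 4 or more rule UMIs over those with 0. The 89 to 305 nuclei per matrix limit what single genes can show.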
